A study of Mus musculus with 16 samples.

Results

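Collagen genes were followed through BLISS libraries of AB22 cells, a mouse mesothelioma line (mesothelioma is a cancer of mesothelial cells, which cover the lungs and other organs). BLISS ligates an adapter to free DNA ends in fixed cells, so each value here counts ligated ends, called break ends, and does not measure transcripts. Whether each counted end is a break in genomic DNA was not tested. The members were the protein-coding genes of GENCODE M21 on the mm10 build whose symbol is Col, a number, a and a number, and there were 44 of 21938 protein-coding genes on the main chromosomes. Of these 44 genes, 11 encode fibrillar chains, 6 basement membrane chains, 6 beaded filament chains, 9 FACIT chains and the remaining 12 other classes.

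Both lines had been infected with viral particles that carry an inducible hairpin vector (pTRIPZ) and selected with puromycin. The shCTRL line carries the control hairpin and the shHMGB1 line a hairpin against HMGB1, a DNA-bending chromatin protein. All cells, controls included, received doxycycline for 7 to 10 days, grew at low oxygen and were synchronised in G1 before gamma irradiation at 0, 3, 5 or 10 Gy. Each of the 8 groups had 2 libraries, 16 in all, which the series' design calls biological replicates. The labels do not say how far apart the replicates were grown, so the spread that p-values rest on may be technical. The time from irradiation to fixation is not given in the sources used here.

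Collagens are secreted proteins of 3 chains wound into a triple helix, in which glycine recurs at a fixed spacing. Fibrillar collagens (types I, II, III, V, XI, XXIV and XXVII) build the tension-bearing fibrils of connective tissue. Type IV chains build the network of basement membranes, and type VI chains form beaded filaments around cells. FACIT chains sit on the surface of fibrils. Their genes are split into many short exons, and in fibrillar genes most exons of the helix begin with a complete glycine codon and span a whole number of Gly-X-Y triplets. Mesothelial and fibroblast-like cells are known to make types I, III, V and VI.

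Libraries held 131430 to 1010888 ends on the main chromosomes, with shCTRL 3 Gy replicate 2 the smallest. Values are therefore scaled to the library: gene bodies are given in counts per 1000000 ends of the library (CPM), and exons and introns in CPM per kb of sequence. Exons were all bases in an exon of any transcript of the gene, and introns the rest of the gene outside the exons of any gene. Between 0.243% and 0.394% of the ends of a library fell in collagen gene bodies, and the 44 genes gave 187 to 1278 exon ends in a library. Libraries are bulk, so fewer cells with ends at a gene and fewer ends per cell cannot be told apart. Hmgb1, the gene the hairpin targets, had a log2 difference in gene-body ends of 0.16 ± 0.20 (SE) between shHMGB1 and shCTRL (edgeR quasi-likelihood adjusted p = 0.848). That value does not check the knockdown, since ends do not measure its transcript.

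Of 9 mesothelial markers, Msln stood high with 5.74 ± 4.14 exon CPM per kb (SD, n = 16). Pdpn (0.737) was also above the median of protein-coding genes, 0.347. Krt8 (0.144), Krt18 (0.043), Krt19 (0.148), Wt1 (0.124), Calb2 (0.172), Upk3b (0.282) and Lrrn4 (0.299) lay below that median. Of 6 fibroblast markers, Vim (15.8), S100a4 (7.10) and Pdgfrb (2.82) passed the 95th percentile of protein-coding genes, while Thy1 (1.22), Pdgfra (1.07) and Fap (0.442) did not. None of 4 chondrocyte, 4 basal epithelial, 4 blood and 3 neuronal markers passed the 95th percentile of protein-coding genes. These values are of break ends, and an absence of ends does not show that a gene was not transcribed.

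Before the values, 7 exons are shown, from genes whose ends collected at exon edges and from Col2a1, a gene with few ends. Each is the wholly coding internal exon of at most 150 bases with the most ends at its low-coordinate edge in the gene's main transcript. The rule was set after the pattern had been seen. Sequences are the transcript sequences of GENCODE M21 (mm10), written 5′ to 3′ on the coding strand. Capitals mark the 5 exon bases at the low-coordinate edge, which is the splice acceptor side for genes on the plus strand and the splice donor side for genes on the minus strand.
Col1a1 exon 24 (chr11:94943590-94943643, plus strand): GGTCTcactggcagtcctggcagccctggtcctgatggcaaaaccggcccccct
Col1a2 exon 43 (chr6:4535831-4535884, plus strand): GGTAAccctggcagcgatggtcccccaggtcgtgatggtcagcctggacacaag
Col3a1 exon 42 (chr1:45343256-45343309, plus strand): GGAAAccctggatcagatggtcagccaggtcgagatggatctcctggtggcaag
Col16a1 exon 17 (chr4:130058957-130059019, plus strand): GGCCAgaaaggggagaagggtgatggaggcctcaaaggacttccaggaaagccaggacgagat
Col5a2 exon 23 (chr1:45406240-45406347, minus strand): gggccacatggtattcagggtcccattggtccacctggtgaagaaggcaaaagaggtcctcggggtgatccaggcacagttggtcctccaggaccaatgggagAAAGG
Col6a1 exon 15 (chr10:76717795-76717857, minus strand): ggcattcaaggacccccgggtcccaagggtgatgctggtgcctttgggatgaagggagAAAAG
Col2a1 exon 13 (chr15:97995016-97995069, minus strand): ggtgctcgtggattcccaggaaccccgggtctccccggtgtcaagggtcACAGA

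In all 7 exons every unit of 9 bases began with gg, the start of a glycine codon. The Col1a2 and Col3a1 exons were alike at 39 of 54 bases. In the Col1a1 exon, 209 ends of the 16 libraries lay within 5 bases of the low-coordinate edge and 4 within 5 bases of the other edge, and 204 of them shared a single base in the intron, 2 bases before the exon. All 16 libraries had ends at that base. The Col1a2 exon had 165 such ends against 0, and 151 lay on the first base of the exon. In Col5a2 and Col6a1, on the minus strand, 106 and 117 ends shared the single intron base next to the donor edge. The Col2a1 exon, of a fibrillar chain typical of cartilage, had 1 end near its low-coordinate edge and 0 within the exon. These 7 exons share their repeat structure. Their ends at the low-coordinate edge ranged from 1 to 209, but the genes shown have many ends or few, so that span follows from which genes were shown.

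Type I collagen genes held more exon ends per kb than any other collagen. Col1a1 (chromosome 11, 94936224 to 94953042), the alpha-1 chain of type I collagen, had 48.6 ± 10.6 exon CPM per kb (SD, n = 16), 24th highest among 21938 protein-coding genes. Its lowest, median and highest library stood at 24.3, 47.5 and 63.9. Col1a2 (chromosome 6, 4504814 to 4541544), the partner chain, had 20.7 ± 4.75, with 7.50, 21.0 and 28.8 as its lowest, median and highest library. Together these 2 genes gave 51.1% of the 12605 exon ends in collagens. Over coding bases alone, 4359 in Col1a1 and 4116 in Col1a2, the 2 genes had 63.9 ± 14.4 and 53.0 ± 11.9 CPM per kb. The annotated exons of Col1a2 span 12426 bases, those of Col1a1 6563.

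Of the other fibrillar genes, Col3a1 (9.56 ± 2.97; chromosome 1, 45311538 to 45349706), which encodes type III collagen, and Col5a2 (8.51 ± 2.85; chromosome 1, 45374321 to 45503282) and Col5a1 (5.96 ± 1.72; chromosome 2, 27886425 to 28039514), both of type V, lay above the 99th percentile of protein-coding genes. Col3a1 ranged from 3.53 to 16.3 over libraries, Col5a2 from 4.56 to 14.9 and Col5a1 from 2.69 to 8.37. The ranges of these 3 genes overlap. Col5a3 had 2.14 ± 0.967 and Col11a1, a minor fibrillar chain, 0.833 ± 0.310. Col24a1 (0.413), Col11a2 (0.334), Col27a1 (0.171) and Col2a1 (0.137) were near or below the median of protein-coding genes.

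Type VI genes split into 3 with many ends and 3 with few. Col6a1 (chromosome 10, 76708792 to 76726168) had 8.41 ± 3.37 exon CPM per kb, Col6a3 (chromosome 1, 90765923 to 90843971) 4.96 ± 2.38 and Col6a2 (chromosome 10, 76595762 to 76623630) 3.52 ± 1.39. These encode the 3 classical chains of type VI collagen. The alternative chains Col6a4, Col6a5 and Col6a6 had 0.333, 0.288 and 0.171, below the median of protein-coding genes, with exon ends in 12, 12 and 7 of 16 libraries.

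Type IV genes lie in head-to-head pairs, and the pairs differed. Col4a1 (1.93 ± 1.25) and Col4a2 (1.76 ± 1.07), the common chains of basement membranes, overlap by 22 bases at their 5′ ends on chromosome 8, and Col4a1 was the higher of the pair in 10 of 16 libraries. Col4a3 (0.281) and Col4a4 (0.291), 71 bases apart on chromosome 1, were both low, with Col4a3 the higher in 8 libraries. On the X chromosome, Col4a5 had 1.72 ± 0.907 and Col4a6, whose start lies 1308 bases away on the other strand, 0.125 ± 0.201. Col4a5 was the higher in 15 of 16 libraries. Within 1 kb of its annotated 5′ end, Col4a5 had 1.35 ± 1.13 CPM per kb (30 ends over all libraries). Col4a6 had 0.136 ± 0.301 (3 ends), the same order as in exons. These windows overlap each other and take in exon bases, so they are not a separate check.

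Among FACIT genes Col16a1 (9.05 ± 2.69; chromosome 4, 130047840 to 130099283) stood with the fibrillar leaders, and Col12a1 had 1.23 ± 0.399. The other FACIT genes, Col9a1, Col9a2, Col9a3, Col14a1, Col19a1, Col20a1 and Col22a1, ran from 0.143 (Col19a1) to 0.556 (Col20a1). Of the remaining classes Col8a1 (0.634) was highest. The 5 lowest collagens were Col15a1 (0.046), Col8a2 (0.067), Col13a1 (0.088), Col23a1 (0.091) and Col4a6 (0.125), with 4, 4, 5, 7 and 12 exon ends over all 16 libraries. At such counts the order among these 5 genes is not resolved.

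Grouped by class, ends were summed and divided by the summed length of the genes. Fibrillar genes had 8.11 ± 1.63 exon CPM per kb and 1.01 ± 0.184 intron ends (SD, n = 16), a ratio of 8.05 ± 1.35. That pooled ratio exceeded the exon over intron ratio of every single fibrillar gene, with Col3a1 highest at 6.24 and Col1a1 at 3.12. Short and long genes enter the sums unequally, so a pooled ratio does not stand for its members. Without Col1a1 and Col1a2 the other 9 fibrillar genes had 3.09 ± 0.635 in exons and a ratio of 4.00 ± 0.749. Beaded filament genes had 2.56 ± 0.869 and a ratio of 5.06 ± 1.32, and basement membrane genes 0.900 ± 0.246 and a ratio of 2.86 ± 0.695. The beaded filament ratio also exceeded that of each member, with Col6a3 highest at 4.84. A set of 14 genes known for expression in cartilage, skin, nerve or other restricted tissues (Col2a1, Col6a4, Col6a5, Col9a1, Col9a2, Col9a3, Col10a1, Col11a2, Col17a1, Col19a1, Col20a1, Col22a1, Col25a1 and Col26a1) had 0.258 ± 0.119 in exons, 0.241 ± 0.0271 in introns and a ratio of 1.08 ± 0.507. No transcript was measured, so these 14 are called tissue-restricted and not silent. None of them reached the 95th percentile of protein-coding genes in exons, and they ran from percentile 18.7 (Col2a1) to 66.6 (Col20a1). The 5 lowest collagens are outside this set, so a low exon density was not particular to it. Over all 44 genes, 7 were above the 99th percentile, 9 above the 95th and 24 below the median.

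**Figure D1:**
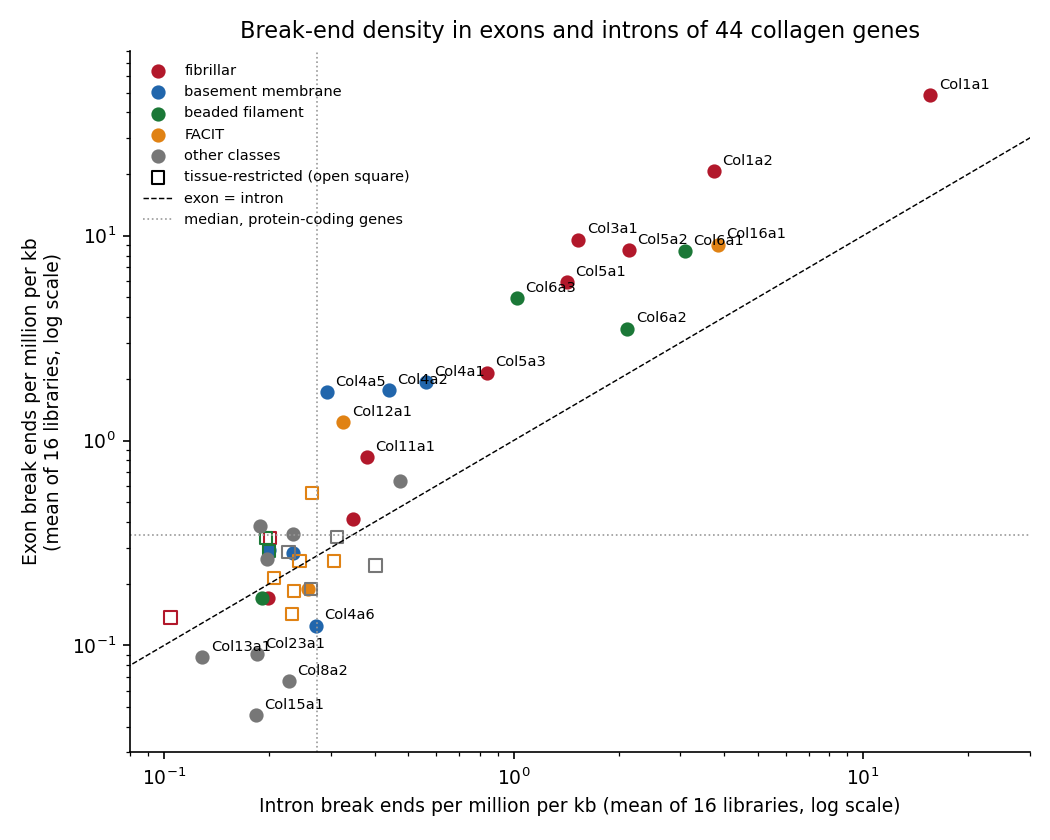
Mean exon density (vertical) against mean intron density (horizontal) of the 44 collagen genes, in CPM per kb of break ends over 16 libraries on log scales; colours are classes, open squares the 14 tissue-restricted genes, the dashed line equal densities and dotted lines the medians of protein-coding genes. Col1a1 stands at 48.6 in exons and 15.6 in introns, and the open squares gather near the 2 medians.

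Exons held more ends per kb than introns of the same gene in 16 of 43 collagens tested and fewer in 1. The edgeR quasi-likelihood test compared both regions within each library, and over all 17546 genes tested 24.6% were called, 22.4% higher in exons and 2.21% lower. Called genes were 7 of 11 fibrillar, 3 of 6 basement membrane, 3 of 6 beaded filament and 2 of 9 FACIT genes, with Col18a1 called higher and Col15a1 lower among the multiplexins. None of the 13 tissue-restricted genes tested was called in either direction. At an unadjusted p under 0.05 were 0 of these 13, against 5774 of all 17546 genes (edgeR). These 13 genes had only 9 (Col9a2) to 30 (Col25a1) exon ends each over all libraries, which limits the test. The median log2 ratio was 0.34 over the 43 collagens and 0.38 over all genes tested. DESeq2 was not run for this comparison. Its p-values measure the spread over libraries, and libraries of the same hairpin and replicate number may share a source.

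Col3a1 had the highest ratio, a log2 exon over intron difference of 2.67 ± 0.15 (SE; edgeR quasi-likelihood adjusted p = 2.53e-42). Col1a2 followed with 2.52 ± 0.12 (edgeR adjusted p = 3.00e-52) and Col4a5, an X-linked basement membrane chain, with 2.43 ± 0.23 (edgeR adjusted p = 1.99e-19). Col6a3, Col5a1 and Col5a2 had 2.16, 2.10 and 2.01. Col12a1 (1.94), Col4a2 (1.86), Col4a1 (1.76), Col1a1 (1.66) and Col6a1 (1.51) came next. Col5a3 (1.27), Col16a1 (1.26), Col11a1 (1.1), Col18a1 (1.02) and Col6a2 (0.67) had the smallest ratios past the test. These ratios also depend on which side of an exon edge the ends fell. At low-coordinate edges Col6a2 had 303 ends on the adjoining intron base and 23 on the adjoining exon base. Col1a2 had 210 and 786. Introns of Col6a2 at 25 to 200 bases from an exon had 0.550 CPM per kb, against 3.52 in its exons. Of the 8 collagens with the highest exon densities, Col6a1 had exons above introns in 15 of 16 libraries and the other 7 in 16 of 16.

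Ratios did not rank as exon levels did. Col1a1 had the highest exon density and the 10th highest ratio, and its introns held 15.6 ± 4.11 CPM per kb. Col4a5 had the reverse pattern, with 0.292 ± 0.0451 in introns, close to the median of protein-coding introns, 0.274. The call of Col15a1 (-1.72 ± 0.67, edgeR adjusted p = 0.0389) rests on 4 exon ends and was lost in 11 of 16 omissions of a single library (edgeR adjusted p up to 0.0814, without shHMGB1 0 Gy replicate 1). That of Col18a1 (edgeR adjusted p = 0.0379) was lost without shHMGB1 3 Gy replicate 1 (0.62, edgeR adjusted p = 0.305), and in 4 other omissions.

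Ends gathered at exon edges, on a single side. Ends within 5 bases of an internal exon edge of the main transcript, on its intron or its exon side, were counted at the low-coordinate and the high-coordinate edge. In the 8 collagens on the plus strand with at least 20 such ends, the low-coordinate edge is the splice acceptor. In the 8 on the minus strand it is the splice donor. All 16 had more ends at the low-coordinate edge. Over all collagens of each strand, 5166 ends lay at the low-coordinate edge and 151 at the other on the plus strand, and 2321 against 52 on the minus strand.

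Col1a1 had 1836 ends at the low-coordinate edges of 50 exons and 52 at the high-coordinate edges. Col1a2 had 1517 against 10, Col3a1 785 against 6, Col16a1 533 against 29 and Col5a1 303 against 16, all at acceptors. At donors, Col5a2 had 961 against 13, Col6a1 375 against 1, Col6a2 340 against 2, Col6a3 217 against 3 and Col4a1 157 against 3. In each of these 10 genes the low-coordinate edge held more ends in at least 15 of 16 libraries. Low-coordinate edges held 51.0% of all gene-body ends of Col3a1, 44.3% of those of Col6a1, 43.8% of those of Col6a2, 39.8% of those of Col1a2 and 34.6% of those of Col1a1. The 14 tissue-restricted genes had at most 2 ends each at those edges. Other collagens with few ends were alike, such as Col14a1, Col27a1 and Col15a1 with 1 each. The pattern was noticed in these data and is given without a test.

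The same side led in other genes. Among 1162 protein-coding genes with at least 20 ends at internal exon edges, 98.5% had more at the low-coordinate edge, and the median gene had 95.4% of its edge ends there, against 98.3% in the 16 collagens. The collagens are therefore not particular in the side. Within the edge, Col1a1 had 1633 ends on the 4 bases from the third intron base to the first exon base, against 184 on the 30 intron bases 11 to 40 bases away and 957 on the 30 exon bases 11 to 40 bases inside. In Col5a2 these 3 counts were 831, 63 and 260. The deposited files keep no strand and reads were not analysed, so how an end came to be placed at an exon edge was not tested. Whether the ends at exon edges are breaks in genomic DNA was not tested either.

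**Figure D2:**
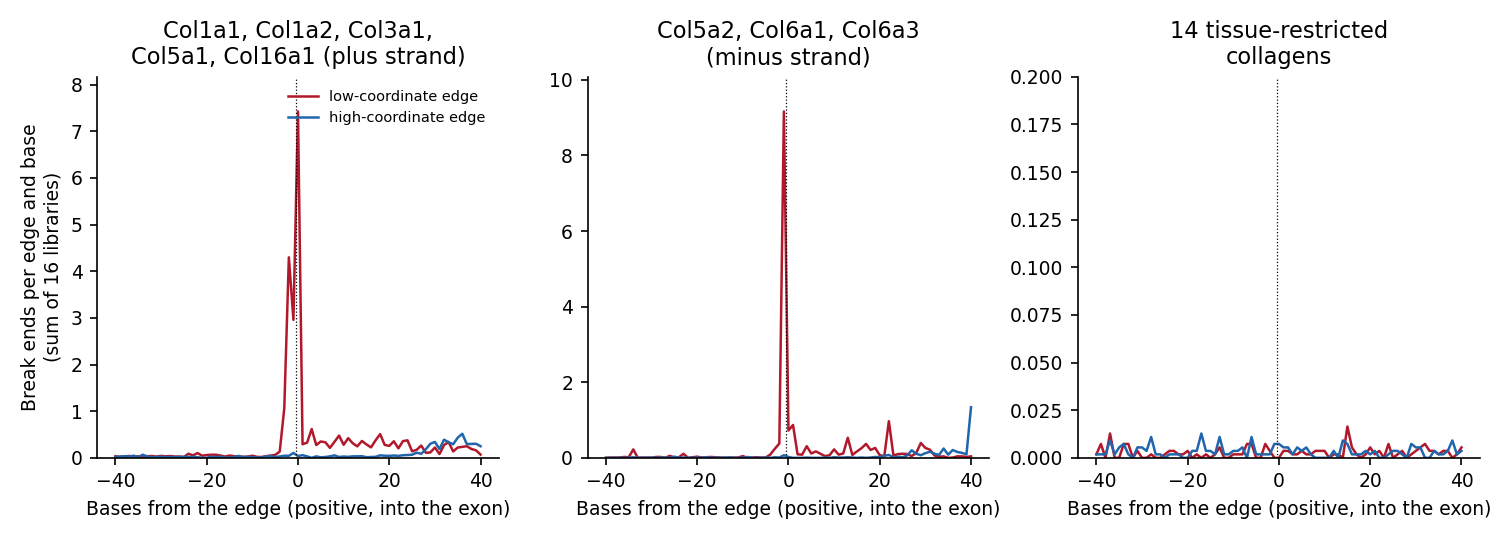
Break ends per exon edge and base (vertical, sum of 16 libraries) by distance from the edge in bases (horizontal, positive into the exon) for the 5 leading plus-strand and 3 leading minus-strand collagens and the 14 tissue-restricted collagens; red is the low-coordinate edge and blue the high-coordinate edge, and the vertical scales differ. The red peak sits on the last intron bases and the first exon base in the first 2 panels and is missing in the third.

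The share of ends at low-coordinate edges was also compared between groups. In Col1a1, Col1a2 and Col3a1 together the share averaged 38.5 ± 2.81% for shCTRL and 38.7 ± 1.90% for shHMGB1 (SD over 8 libraries of each), and 38.5 ± 2.84% at 0 Gy (n = 4) and 38.6 ± 2.26% in irradiated libraries (n = 12). Over all 44 collagens the share averaged 20.4 ± 2.37% for shCTRL and 18.1 ± 3.22% for shHMGB1, and 20.4 ± 2.30% at 0 Gy and 18.9 ± 3.15% in irradiated libraries. The line and dose differences are smaller than the SD of either group and were not tested. Within shHMGB1 the share over all collagens was 20.0 ± 1.53% in replicate 1 and 16.3 ± 3.61% in replicate 2 (n = 4 each). It ranged from 11% to 23.8% over libraries, and the lowest was the shHMGB1 replicate 2 library at 3 Gy.

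The repeat structure of exons was shared by genes with many and with few ends. Of 1920 internal coding exons of collagens, 63.8% had a length that is a multiple of 9 bases, against 13.7% in other protein-coding genes, and 24.4% had 54 bases, against 0.444%. Fibrillar genes reached 83.9% and 48.6%. The tissue-restricted genes, with few ends, had 66.5% and 29.8%.

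In the leading genes, intron ends were densest next to exons. Within 25 bases of an exon, introns had 38.3 CPM per kb in Col1a1, 24.7 in Col5a2, 19.9 in Col6a2, 18.2 in Col1a2, 17.5 in Col6a1 and 12.2 in Col3a1. From 25 to 200 bases away the densities were 7.46 in Col1a1, 1.28 in Col5a2, 0.550 in Col6a2, 2.20 in Col1a2, 0.783 in Col6a1 and 0.601 in Col3a1. By count, long introns still held most of their ends farther off: 1812 of 2329 intron ends of Col5a1 and 1675 of 2627 of Col5a2 lay at least 200 bases from any exon. At that distance Col16a1 had 3.58 ± 1.27, Col1a2 1.78 ± 0.958, Col5a2 1.65 ± 0.652 and Col5a1 1.34 ± 0.342 (SD, n = 16). In these 4 genes that was above the gene's own intergenic flanks of up to 10 kb on each side (0.248, 0.456, 0.430 and 0.321) in 16 of 16 libraries. For Col16a1 this carries little weight, since its flanks span only 3339 bases with 10 ends over all libraries. Col1a1 has only 970 intron bases at that distance, with 12.2 ± 12.2. Col3a1 differed from these 4 genes, with 0.457 ± 0.311 in deep introns and 0.410 ± 0.243 in its flanks, higher in 9 of 16 libraries. Col4a5 had 0.283 and 0.279, and Col25a1, a tissue-restricted gene, 0.262 and 0.234.

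**Figure D3:**
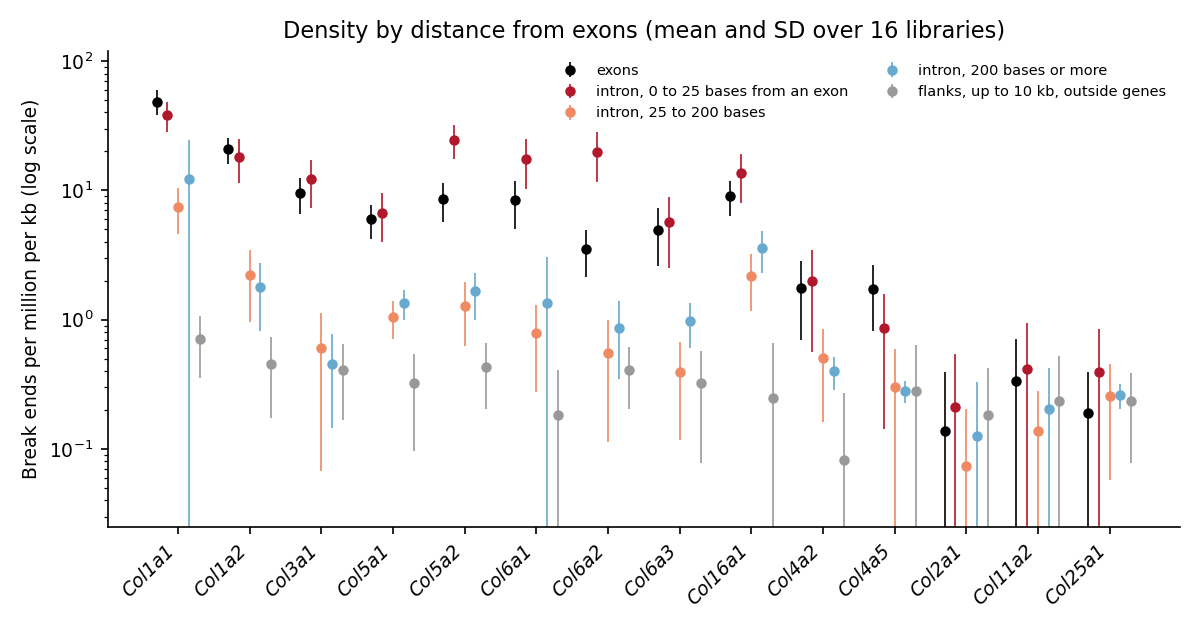
Break ends in CPM per kb (vertical, log scale; mean and SD over 16 libraries) in exons, in introns by distance from the nearest exon, and in flanks outside genes, for 14 collagens; SD bars that reach 0 run off the lower axis. Introns within 25 bases of an exon lie near the exons in Col1a1, Col1a2 and Col5a1, while the values of Col2a1, Col11a2 and Col25a1 stay below 0.5.

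Single bases carried many ends. The fullest base held 204 ends in Col1a1, 151 in Col1a2, 117 in Col6a1, 106 in Col5a2 and 77 in Col6a2. Col4a6 had 80 on a single base although its exon density was among the 5 lowest. Several members overlap other genes, and without strand the ends of both cannot be told apart: Col4a1 and Col4a2 with antisense Gm15418 and Gm15419, Col5a1 with 2810430I11Rik and Gm13372, Col18a1 with Slc19a1, and Col10a1, which lies wholly within Nt5dc1.

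No collagen was called as different between shHMGB1 and shCTRL. Of 36 collagens that passed the filter on low gene-body counts, 0 were called (edgeR quasi-likelihood, adjusted p under 0.05), against 0.23% of 12599 genes. DESeq2 also called 0 collagens. At an unadjusted p under 0.05 were 3 of the 36 collagens and 1227 of the 12599 genes (edgeR). The median log2 difference of the 36 collagens was 0.12, against 0.04 over all genes tested, and 24 of 36 were positive. In exons, 15 collagens were tested and 0 called (edgeR, background 0% of 2631 genes; DESeq2 called 0 collagens and 1 gene in all), with 2 collagens and 209 genes at an unadjusted p under 0.05.

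The largest such difference by p was that of Col16a1, a FACIT chain. In shCTRL its gene body had 206, 259 and 383 CPM as the lowest, median and highest library, and in shHMGB1 79.9, 186 and 299. The ranges overlap. shHMGB1 differed from shCTRL by -0.51 ± 0.15 on the log2 scale (SE; edgeR adjusted p = 0.136). With the replicate number as a block within each hairpin it passed the threshold (-0.50, edgeR adjusted p = 0.00826), as it did with distinct positions (-0.52, edgeR adjusted p = 0.0246) and without shHMGB1 3 Gy replicate 1 (-0.63, edgeR adjusted p = 0.00969). In exons it was -0.32 ± 0.21 (edgeR adjusted p = 0.811). Col1a1 had 48.0 ± 4.25 exon CPM per kb in the 4 shCTRL libraries of replicate 1 and 53.8 ± 9.52 in those of replicate 2, and 55.1 ± 7.00 and 37.5 ± 12 in shHMGB1.

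By class, the lines overlapped. Exon density in fibrillar genes was 8.65 ± 1.1 in shCTRL and 7.57 ± 1.95 in shHMGB1, in basement membrane genes 0.906 ± 0.283 and 0.894 ± 0.222, in beaded filament genes 2.64 ± 0.618 and 2.48 ± 1.11, and in tissue-restricted genes 0.258 ± 0.158 and 0.258 ± 0.0730 (SD, n = 8 each). In these 4 groups the lines differed by less than 1 SD of either line's libraries. FACIT genes, among them Col16a1, had 1.61 ± 0.162 and 1.26 ± 0.307, a larger gap than either SD. These sums were not tested.

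Irradiation changed no collagen past the test either. Of 36 collagens 0 were called in gene bodies between 3, 5 and 10 Gy together and 0 Gy (edgeR, background 0.0159% of 12599 genes). DESeq2 also called 0. The median log2 difference was -0.03, against 0.00 over all genes. An unadjusted p under 0.05 was found in 6 of 36 collagens and 877 of 12599 genes (edgeR). In exons 0 of 15 were called (edgeR, background 0% of 2631 genes), and DESeq2 called 0. At an unadjusted p under 0.05 were 0 of the 15, against 183 of 2631 genes (edgeR). Col16a1 again had the smallest p. Its gene body had 383 and 291 CPM in the 2 unirradiated shCTRL libraries, 299 and 237 in those of shHMGB1, and 79.9 to 342 in the 12 irradiated ones, which overlap them. The log2 difference was -0.55 ± 0.16 (edgeR adjusted p = 0.401), and it passed the threshold with the replicate block within each hairpin (-0.55, edgeR adjusted p = 0.0296) and with distinct positions (-0.65, edgeR adjusted p = 0.0451).

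At 0, 3, 5 and 10 Gy the exon density of fibrillar genes averaged 8.92 ± 0.734, 7.52 ± 2.61, 7.18 ± 0.887 and 8.82 ± 1.41 (SD, n = 4 each), with no order by dose. Basement membrane genes had 0.858 ± 0.222, 0.798 ± 0.256, 0.976 ± 0.349 and 0.969 ± 0.188 at the same doses, and tissue-restricted genes 0.227 ± 0.0740, 0.343 ± 0.20, 0.214 ± 0.0449 and 0.249 ± 0.0978. No collagen was called for a different irradiation response of the lines in gene bodies (0 of 36) or exons (0 of 15). The edgeR background was 0% in both, and DESeq2 called 0 collagens in both. In gene bodies 3 of 36 collagens had an unadjusted p under 0.05, against 653 of 12599 genes (edgeR). In exons the counts were 0 of 15 collagens and 127 of 2631 genes (edgeR).

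**Figure D4:**
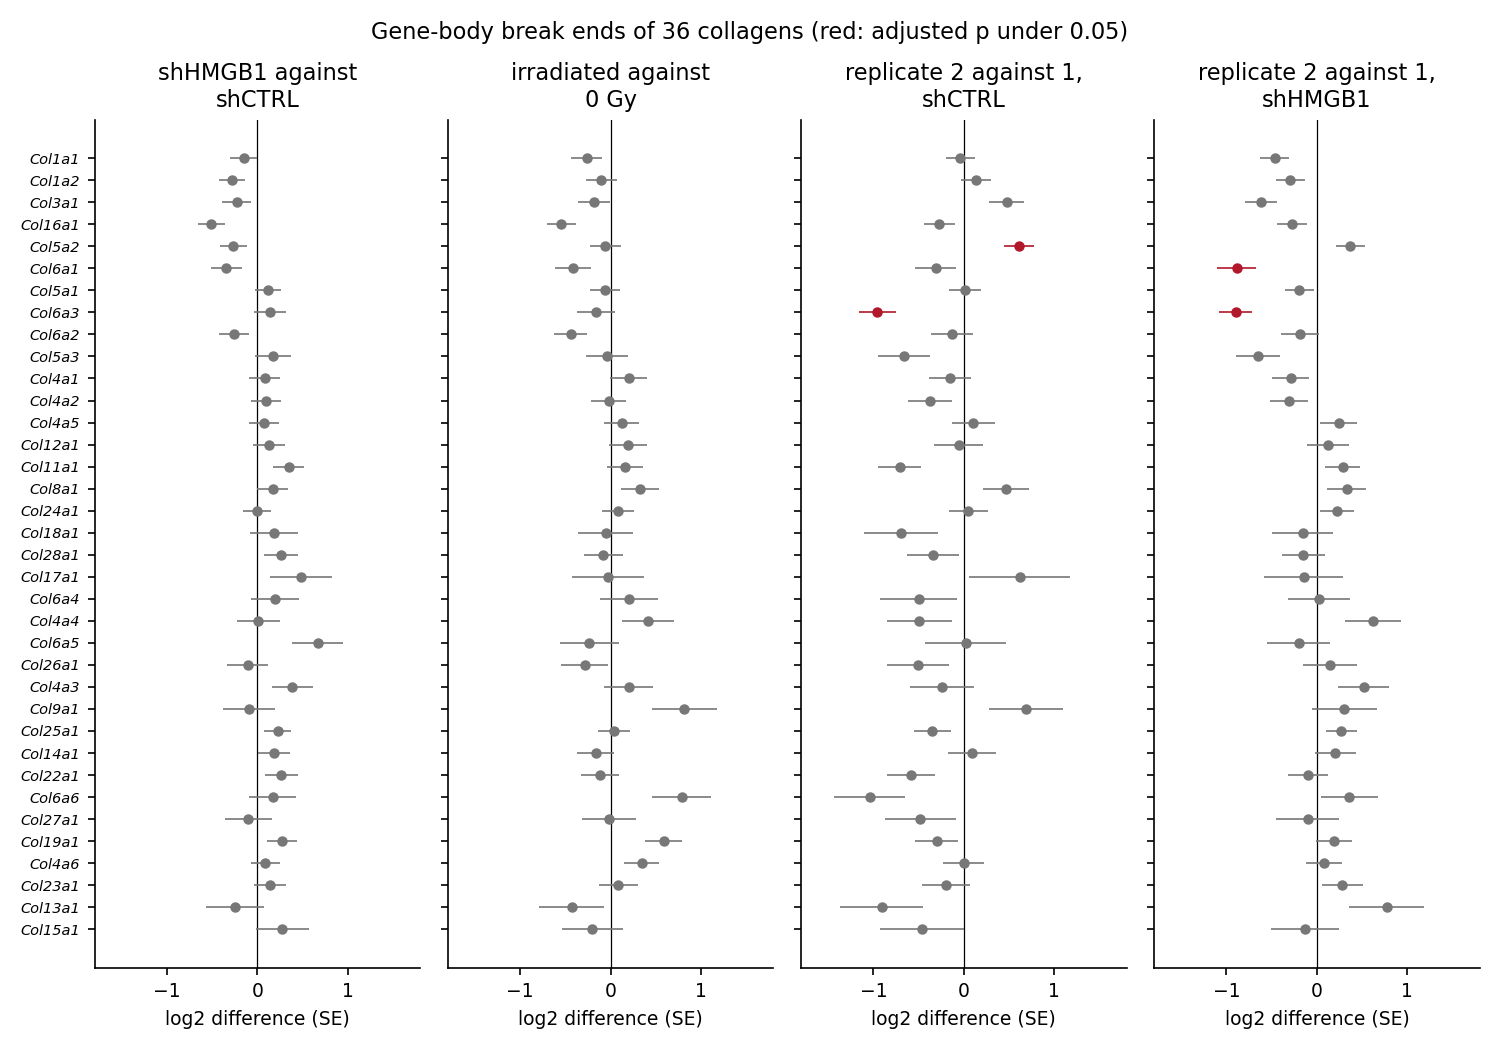
Log2 differences in gene-body break ends with standard errors (horizontal) of the 36 collagens tested, ordered by exon density, in 4 comparisons by edgeR; red marks an adjusted p under 0.05. Red points appear in the replicate comparisons, for Col5a2 and Col6a3 in shCTRL and for Col6a1 and Col6a3 in shHMGB1.

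A single library stood low in the leading collagens. In shHMGB1 3 Gy replicate 2, 7 of the 8 collagens with the highest exon densities had their lowest gene-body CPM of all 16 libraries, and fibrillar exon density was 3.85 there against 5.92 to 10.5 in the other 15. Beaded filament genes were also lowest there, at 1.21 against 1.38 in the next library. Basement membrane and tissue-restricted genes were within the range of the other libraries (0.648 and 0.246). Exons of other protein-coding genes held 15.9% of its ends, within the 14.8% to 19.0% of the other libraries. Without it the mean fibrillar exon density over the other 15 libraries was 8.39.

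A few collagens were called between replicate numbers. Replicate 2 against replicate 1 gave 2 called collagens of 36 in shCTRL gene bodies, 1 higher and 1 lower, and 2 of 36 in shHMGB1, both lower (edgeR). The background over 12599 genes was 0.643% in shCTRL (0.31% higher, 0.333% lower) and 0.389% in shHMGB1 (0.0159% higher, 0.373% lower). DESeq2 called 0 collagens in both. In edgeR, 8 and 7 of 36 collagens had an unadjusted p under 0.05, against 1208 and 763 of 12599 genes. All genes split into 39 higher and 42 lower in shCTRL. Scaled to library totals without TMM, which moved the median of all genes from -0.04 to 0.19, the split was 157 higher and 17 lower. In shHMGB1 it was 2 higher and 47 lower under both scalings.

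Col6a3, the large chain of type VI collagen, was lower in replicate 2 of both lines. In shCTRL replicate 1 it had 173, 114, 135 and 163 CPM at 0, 3, 5 and 10 Gy, and in replicate 2 61.2, 129, 116 and 78.0. The ranges of the 2 numbers overlap. On the log2 scale replicate 2 differed by -0.95 ± 0.20 (SE; edgeR adjusted p = 0.00163). In shHMGB1 replicate 1 had 210, 179, 134 and 172 CPM and replicate 2 had 124, 55.9, 99.2 and 87.2, which do not overlap, with a difference of -0.90 ± 0.18 (edgeR adjusted p = 0.000597). In shCTRL the call was lost without 0 Gy replicate 1 (edgeR adjusted p = 0.294), 0 Gy replicate 2 (0.276), 10 Gy replicate 1 (0.227) and 10 Gy replicate 2 (0.248). In shHMGB1 it was lost without 10 Gy replicate 1 (0.0570), 10 Gy replicate 2 (0.0539), 3 Gy replicate 1 (0.0711) and 3 Gy replicate 2 (0.0646).

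Col6a1, the alpha-1 chain of type VI collagen, had 111, 71.2, 77.5 and 82.1 CPM in shHMGB1 replicate 1 and 66.9, 36, 48.3 and 31.5 in replicate 2 at 0, 3, 5 and 10 Gy. The 2 sets do not overlap, and the log2 difference was -0.89 ± 0.21 (edgeR adjusted p = 0.0106). In shCTRL its 2 numbers had 45.7 to 122 CPM with no such separation (replicate 1 from 60.3 to 115). The Col6a1 call was lost in 7 omissions of a single shHMGB1 library, while its log2 difference stayed between -1.01 and -0.77 over all 16 omissions. In every replicate comparison here, leaving out either library of a group leaves its partner alone. Both omissions then remove the same dose of that line, so they are not separate checks.

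Col5a2, a type V chain, moved the other way. In shCTRL replicate 1 it had 258, 274, 252 and 267 CPM and in replicate 2 477, 396, 524 and 495, with no overlap and a log2 difference of 0.61 ± 0.17 (edgeR adjusted p = 0.0427). That call was lost in 12 omissions of a single library of either line (edgeR adjusted p up to 0.439, without shCTRL 5 Gy replicate 1). In shHMGB1 replicate 2 had 388, 186, 304 and 443 CPM against 230 to 301 in replicate 1, a difference of 0.37 ± 0.16 that missed the threshold (edgeR adjusted p = 0.702). Col3a1, its neighbour on chromosome 1, had 0.47 ± 0.19 in shCTRL (edgeR adjusted p = 0.328) and -0.62 ± 0.18 in shHMGB1 (edgeR adjusted p = 0.120). Whether the replicate difference itself differs between the lines was not tested.

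**Figure D5:**
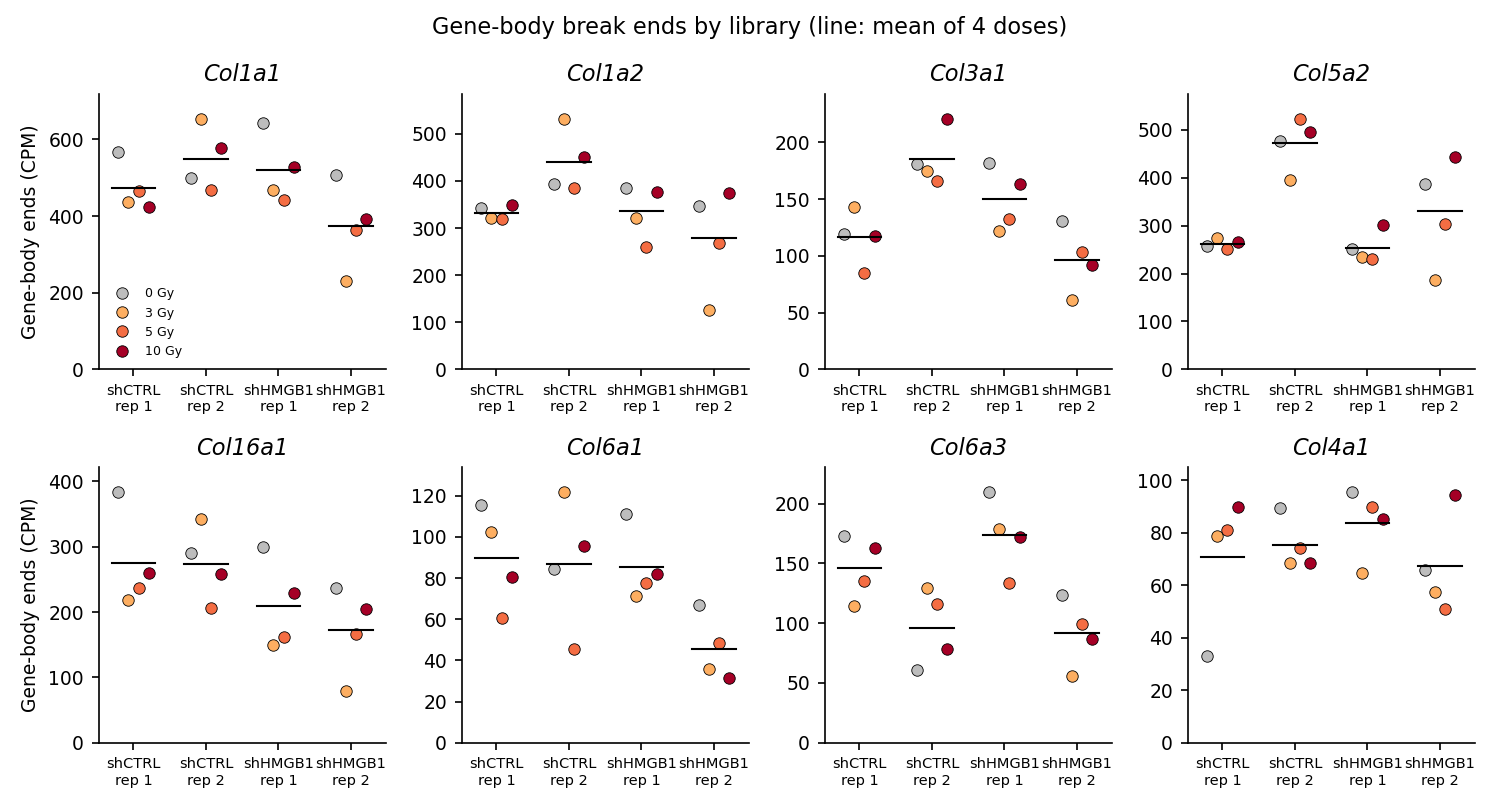
Gene-body break ends in CPM (vertical, from 0) of 8 collagens in each library, grouped by hairpin and replicate number (horizontal), with dose as colour and a line at the mean of the 4 libraries. In Col6a3 the 4 shHMGB1 libraries of replicate 2 (55.9 to 124) lie below those of replicate 1 (134 to 210), and in Col5a2 the 4 shCTRL libraries of replicate 2 (396 to 524) above those of replicate 1 (252 to 274).

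In exons, 1 of 15 collagens was called between replicate numbers in shCTRL, lower in replicate 2, and 0 in shHMGB1 (edgeR). DESeq2 called 0 in both. At an unadjusted p under 0.05 were 4 and 3 of 15 collagens, against 255 and 197 of 2631 genes (edgeR). The background over 2631 genes was 0.874% in shCTRL (0.038% higher, 0.836% lower) and 0.456% in shHMGB1 (0.114% higher, 0.342% lower). Col5a1, the alpha-1 chain of type V collagen, had 7.77, 6.60, 7.35 and 8.37 exon CPM per kb at 0, 3, 5 and 10 Gy in shCTRL replicate 1 and 3.90, 2.69, 4.94 and 5.57 in replicate 2. These do not overlap, and the log2 difference was -1.13 ± 0.29 (edgeR adjusted p = 0.0128). It was lost without any of 6 shCTRL libraries (edgeR adjusted p up to 0.271, without 0 Gy replicate 1), and scaled to library totals it was -0.51 (edgeR adjusted p = 0.324). Gene-body CPM of Col5a1 in shCTRL went the other way at each of these doses. It was 202, 196, 243 and 271 in replicate 1 and 275, 221, 311 and 284 in replicate 2. In exons, all genes split into 1 higher and 22 lower, but into 157 and 3 with library totals. Library totals moved the median of all genes from -0.02 to 0.62. In shHMGB1 the split was 3 and 9, and 0 and 26 with library totals, where the median moved from 0.01 to -0.21.

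Summed gene-body levels of the 6 fibroblast markers were 186 to 297 CPM in shCTRL replicate 1, 202 to 297 in replicate 2, 194 to 280 in shHMGB1 replicate 1 and 117 to 182 in replicate 2. Those of the 9 mesothelial markers were 44.2 to 66.4, 58.7 to 91.3, 49.5 to 68.0 and 34.6 to 58.1 in the same order. The shHMGB1 libraries of replicate 2 were thus lowest in fibroblast markers, and they reached the lowest mesothelial values. Col6a3 had 61.2 to 129 CPM in shCTRL replicate 2 and 55.9 to 124 in shHMGB1 replicate 2, which overlap. Col6a1 in shCTRL 5 Gy replicate 2 (45.7) also lay within its range in shHMGB1 replicate 2 (31.5 to 66.9). The part of these markers in the result was not tested.

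Exons and introns were also compared in other genes of collagen production. A list of 56 genes covers modification, folding and export, processing, cross-linking, fibril partners, receptors and breakdown. Of the 51 tested, 26 were higher in exons and 0 lower (edgeR; background 22.4% and 2.21% as above), with a median log2 ratio of 1.01. By role, 6 of 15 modifying enzymes were called, 4 of 5 folding and export genes, 3 of 6 processing genes, 3 of 4 cross-linking genes, 4 of 7 fibril partners, 2 of 7 receptors and 4 of 7 breakdown genes.

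Fn1, the fibronectin on which collagen fibrils assemble, had 39.2 ± 11.7 exon and 3.41 ± 1.28 intron CPM per kb (SD, n = 16), a log2 ratio of 3.54 ± 0.10. The other 3 with the most exon ends were Bgn, a fibril-binding proteoglycan, with 10.2 ± 4.01 in exons, Ddr2, a collagen receptor kinase, with 6.39 ± 2.47, and Sparc, a collagen-binding protein, with 9.43 ± 4.58. Serpinh1, the collagen chaperone of the endoplasmic reticulum, had 13.0 ± 4.32 and Lox, which cross-links collagen, 7.13 ± 3.64 with a log2 ratio of 3.54 ± 0.25. No gene of the list was called for line or dose in gene bodies (0 of 44 in each, edgeR). At an unadjusted p under 0.05 were 6 of 44 in each (edgeR). Over all 12599 genes tested the counts were 1227 for line and 877 for dose. Between replicate numbers in shCTRL, Ddr2 was higher in replicate 2 (0.65 ± 0.17, edgeR adjusted p = 0.035) and Loxl1, another cross-linking enzyme, lower (-1.14 ± 0.29, edgeR adjusted p = 0.0202), 2 of 44, and 0 of 44 were called in shHMGB1.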

How the data were processed

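The deposited files list, for each cluster of break ends, its interval, the positions of its ends (1 per molecule) and a count. They hold raw counts of ends as deposited by the authors, not normalised. The submitters' processing notes name Trimmomatic 0.32, UMI-tools, BWA 0.7.5-r404, SAMtools, bedtools and mm10, without order or settings. The deposited position lists (the fourth column, of another kind than counts) were used to place each end. Genes, exons and sequences came from GENCODE M21 (mm10). Ends on unplaced scaffolds and the mitochondrial genome were left out.

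Counts per gene body, exon and intron were tested with edgeR 4.0.16 (R 4.3.3; TMM, filterByExpr, glmQLFit and glmQLFTest, Benjamini-Hochberg over all genes, threshold 0.05) on 8 group means, with replicate number nested in hairpin for replicate contrasts. Exons and introns were compared within libraries for genes with at least 500 bases of each and 32 ends, with offsets for library total and length. DESeq2 1.42.0 was an alternative. The tests were checked on simulated data. Depth was 131430 to 1010888 ends per library, and collagen exons held 187 to 1278, which limits low genes.

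The members and lists were chosen with earlier results of these data known. Named were collagens past a test, up to 12 with the highest exon densities and at least 20 exon ends per library (8 qualified), 10 fixed type I, III, IV, V and VI genes, the 5 lowest, the 4 pathway genes with most exon ends and those past a test between libraries, and Hmgb1. Serpinh1, Lox and collagens used for comparison were named after their values were seen.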

Additional observations from a re-analysis of the deposited data

Results flagged for a closer look

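Gene-body ends of Col4a1, a basement membrane chain, were 33.0 CPM in shCTRL 0 Gy replicate 1, against 68.5 to 89.7 CPM in the other 7 shCTRL libraries. The gap to the nearest library was 0.626 of the range of the 8 libraries, which marks the sample as far from the others. It was the only one in 35 such checks, of which chance alone marks about 1 in 20.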

How the results depend on the processing

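No called difference changed direction under any alternative run. The exon against intron comparison called 3954 to 4845 genes under other minima, introns 200 bases from exons and distinct positions, against 4316. Replicate numbers fell short of the limit set for pairing (every correlation over 0.1), but did tie libraries within a line: over 4005 genes, deviations of same-numbered libraries correlated at 0.080 to 0.199 within a line (12 of 12 positive, 10 over 0.1), and at -0.213 to 0.102 between lines at the same dose. The labels do not say what a number shares, so this is a hint from the data. Leaving out ends near exon edges was chosen after seeing the data. The causes of the changes below were not tested.

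For shHMGB1 against shCTRL, gene-body calls were 29, and 9 with DESeq2, 70 with distinct positions, 137 with a replicate block within each hairpin, 11 with libraries thinned to the smallest, and 7 to 140 leaving out each library. Called collagens were 0, but 1 with distinct positions, 1 with that block and 0 to 1 leaving out each library. Exon calls were 0, and 1 with DESeq2, 13 with a replicate block over all libraries, 24 with the block within hairpins, 1 without ends within 1 kb of a TSS, and 0 to 7 leaving out each library.

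For irradiation, gene-body calls were 2, and 0 with DESeq2, 4 with library totals, 4 without ends near a TSS, 4 without edge ends, 19 with the replicate block within hairpins, 0 thinned, and 1 to 12 leaving out each library. Called collagens were 1 with distinct positions and 1 with the block. Exon calls were 0, and 4 with the block and 1 thinned. The interaction in gene bodies gave 0 to 1 leaving out each library.

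Between replicate numbers in shCTRL gene bodies, calls were 81, and 28 with DESeq2, 174 with library totals, 44 with no filter, 20 with distinct positions, 37 thinned and 23 to 83 leaving out each library. Called collagens were 2, and 0 with DESeq2, 1 with no filter, 1 with distinct positions, 0 thinned and 0 to 2 leaving out each library. In shHMGB1 calls were 49, and 15 with DESeq2, 29 with distinct positions, 13 thinned and 11 to 73 leaving out each library. Called collagens were 2, and 0 with DESeq2, 1 with distinct positions, 0 thinned and 0 to 4 leaving out each library.

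In shCTRL exons, calls were 23, and 12 with no filter, 15 with DESeq2, 160 with library totals, 0 with distinct positions, 15 in a fit of that line alone and 14 to 24 leaving out each library. Called collagens were 1, and 0 with no filter, DESeq2, distinct positions or without edge ends, 2 with library totals and 0 to 1 leaving out each library. In shHMGB1 exons, calls were 12, and 1 with no filter, 4 with DESeq2, 26 with library totals, 5 with distinct positions, 44 in a fit of that line alone and 0 to 33 leaving out each library. Called collagens were 0, and 1 each with library totals, without edge ends, without ends near a TSS and in the fit alone, and 0 to 1 leaving out each library. The median over collagens in shCTRL exons changed sign with library totals, from -0.36 to 0.26.

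Fibrillar exon density was 10.1 with distinct positions, 9.75 without ends near a TSS and 6.29 without edge ends. Basement membrane exon density was 1.29 and tissue-restricted exon density 0.378 with distinct positions, and the beaded filament ratio was 6.84 without edge ends. Genes with few ends are limited by depth: the 5 lowest collagens had 4 to 12 exon ends in all.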
